A study of Mus musculus with 6 samples.

Results

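Genes of cholesterol and fatty acid synthesis were followed in the mouse uterus 6 h after an injection of progesterone. The set was a list of 36 genes, chosen with earlier results of these data known. It held 17 enzymes of the sterol branch, 12 enzymes of the fatty acid branch and 7 genes of sterol sensing and transport. Of these, 35 had a probe set with a single matching gene symbol and were measured by name, out of 18193 genes in all, and Acat2, a thiolase at the start of the sterol branch, was not analysed here. All mice were 8-week-old females of mixed background that carried the floxed Gata2 allele (Gata2 f/f), with no recombinase named in the labels, and all had lost their ovaries at 6 weeks of age. The progesterone group (3 arrays) received 1 mg of progesterone in 100 µl of sesame oil 2 weeks after the operation, and the oil group (3 arrays) received sesame oil. RNA of the whole uterus was described as pooled from 3 mice, and it was not stated whether each array held a separate pool, and p-values therefore reflect only how these 6 arrays varied, part of which may be technical. In a whole organ, fewer cells of a type and less RNA per cell cannot be told apart.

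Cholesterol is built from acetyl-CoA through mevalonate and the isoprenoids to squalene, which is closed to lanosterol and then trimmed to cholesterol. Fatty acids share the acetyl-CoA pool: carboxylation gives malonyl-CoA, fatty acid synthase makes palmitate, and elongases and desaturases extend and unsaturate the chain. Both branches are known targets of the SREBP transcription factors, which Scap carries out of the endoplasmic reticulum when sterols are scarce and which the Insig proteins hold back when sterols are plentiful. Progesterone is itself made from cholesterol, and in the uterus its receptor acts in epithelium, stroma and muscle.

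Promoter windows from 250 bases before to 50 bases after an annotated start were available for 28 of the 35 measured genes (RefSeq, GRCm38.p6). Fdps, Fdft1, Sqle, Scd1, Scd2, Fads1 and Stard4 had none. The windows of 4 genes are shown because they hold matches to motifs that SREBP and its usual partner NF-Y recognise, and span both branches: Hmgcs1, an early mevalonate enzyme, Cyp51 and Dhcr7, late sterol enzymes, and Elovl5, a fatty acid elongase. Hmgcs1 lies at chr13:119690101-119690400 (+ strand), Cyp51 at chr5:4104648-4104947 (- strand), Dhcr7 at chr7:143829964-143830263 (+ strand), the window with the most matches of its 3 (its E-box lies in another), and Elovl5 at chr9:77917115-77917414 (+ strand). Capitals mark matches, read on either strand, to the SREBP element TCACNCCAC, the E-box CACGTG or the CCAAT box (ATTGG on the other strand), and none of these motifs contains another. The progesterone response element was searched as well.
Hmgcs1: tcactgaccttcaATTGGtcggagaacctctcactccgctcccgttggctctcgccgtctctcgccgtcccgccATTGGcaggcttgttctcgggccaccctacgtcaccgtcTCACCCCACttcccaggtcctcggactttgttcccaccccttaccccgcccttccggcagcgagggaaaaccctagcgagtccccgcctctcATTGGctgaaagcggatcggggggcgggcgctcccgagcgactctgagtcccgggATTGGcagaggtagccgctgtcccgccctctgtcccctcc
Cyp51: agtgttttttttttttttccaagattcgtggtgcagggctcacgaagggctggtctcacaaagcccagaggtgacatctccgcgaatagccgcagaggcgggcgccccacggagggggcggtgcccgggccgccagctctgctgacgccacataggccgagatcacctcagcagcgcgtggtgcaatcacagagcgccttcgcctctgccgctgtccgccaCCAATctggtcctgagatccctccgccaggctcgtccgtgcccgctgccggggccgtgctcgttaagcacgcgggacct
Dhcr7: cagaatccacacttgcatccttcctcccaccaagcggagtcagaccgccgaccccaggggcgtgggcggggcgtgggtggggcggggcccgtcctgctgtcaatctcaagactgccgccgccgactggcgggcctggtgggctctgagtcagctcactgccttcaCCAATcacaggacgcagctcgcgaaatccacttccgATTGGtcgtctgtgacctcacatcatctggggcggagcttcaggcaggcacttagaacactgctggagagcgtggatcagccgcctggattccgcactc
Elovl5: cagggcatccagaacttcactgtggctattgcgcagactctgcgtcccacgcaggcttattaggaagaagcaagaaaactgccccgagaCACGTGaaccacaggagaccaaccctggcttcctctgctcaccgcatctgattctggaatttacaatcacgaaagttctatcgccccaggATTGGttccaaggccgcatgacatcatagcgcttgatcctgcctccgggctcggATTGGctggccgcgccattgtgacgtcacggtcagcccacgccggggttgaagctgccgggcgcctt
A CCAAT box was present in a window of 23 of the 28 genes, against 41.1% of all 27025 genes and 37.4% of all 32851 windows. All 13 sterol branch genes with a window held one, as did 6 of 9 fatty acid genes and 4 of 6 genes of sensing and transport. The E-box was found in 7 of 28 genes (Hsd17b7, Sc5d, Dhcr7, Elovl5, Scap, Insig1 and Abca1), against 8.09% of all genes (7.15% of windows), and the SREBP element in Hmgcs1 alone, against 1.44% of all genes (1.24% of windows). No window of the 28 held the progesterone response element, which 0.537% of all genes had (0.475% of windows). A match is a description of the letters in these windows and not of binding. Only these fixed patterns were searched, so a window without a match may still hold another form of the element.

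Fat transcripts had lower means on the progesterone arrays: Adipoq, the adipocyte hormone adiponectin, was at 5.80, 7.21 and 4.39 with progesterone (log2 level, replicates 1 to 3), against 8.02, 8.11 and 7.08 with oil, although its adjusted p was 0.113 in limma (0.0135 with the replicate number as a block) and its groups overlapped. Liver transcripts appeared on oil replicate 3, where Alb was at 8.71 against 4.16 to 4.29 on the other oil arrays. The neutrophil transcript S100a8 was at 12.02, 12.48 and 11.82 on progesterone replicates 2 and 3 and oil replicate 3, and at or below 5.01 on the other 3 arrays. Array medians lay between 5.51 and 5.53, and Pgr, the receptor of the injected hormone, was 2.08-fold lower with progesterone (adjusted p = 0.00255 in limma).

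After progesterone, single enzymes of both branches were higher or lower, while the medians of both branches stayed near 0. In limma with Benjamini-Hochberg adjustment over all genes, 4 of the 35 genes rose (Acaca, Dhcr7, Elovl5 and Elovl1), 4 fell (Stard4, Scd1, Elovl6 and Fdft1) and 27 did not pass an adjusted p of 0.05. Over all 18193 genes, 5.92% were higher and 5.83% were lower. The 8 called genes make up 22.9% of the set, against 11.7% of all genes and 17.6% of the 10933 genes with a mean level at or above that of Mvd, the member with the lowest level. The progesterone and oil arrays did not overlap for 19 of the 35 genes, or 54.3%, against 30.4% of all genes. Among the genes with a mean level at or above that of Mvd, the share was 41.7%. That limit is a floor and does not match the members' levels. The median log2 change of the set was -0.02, as it was -0.02 over all genes, while the median absolute log2 change was 0.34, against 0.16 over all genes. Because the members were chosen with earlier results of these data known, these differences from all genes are a description and not a test. With the replicate number as a block, 6 genes were higher and 5 lower, against 7.6% and 8.49% of all genes, with Sqle, Cyp51 and Acacb added. An unadjusted p under 0.05 was reached by 18 of the 35 genes, against 26.0% of all genes. Without the 3 arrays with high S100a8, which left 1 progesterone and 2 oil arrays, 0 genes passed in limma, members or others, and at an unadjusted p under 0.05, 7 members were higher and 5 lower, against 9.54% and 9.04% of all genes. In that fit the lone progesterone array is assumed to vary like the oil arrays.

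**Figure D1:**
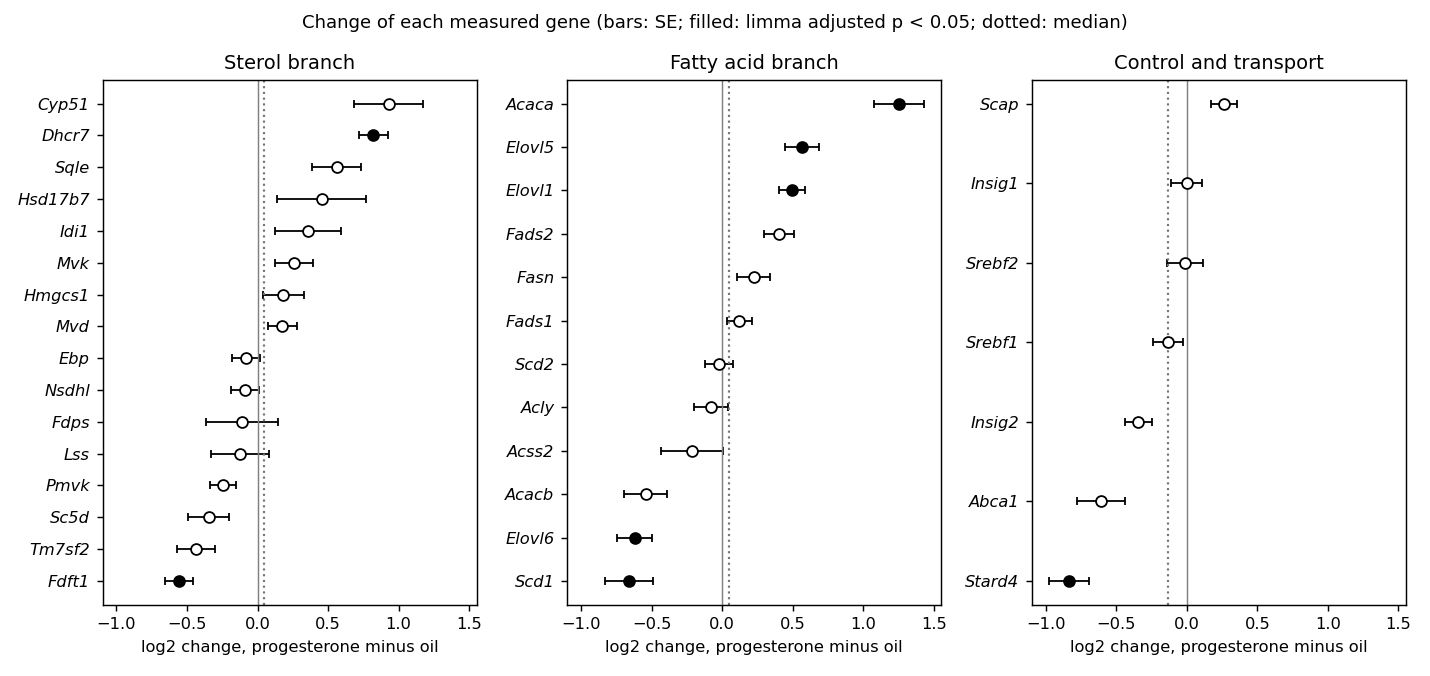
Log2 change (progesterone minus oil, with its SE) of each of the 35 genes, in order of size within the sterol branch, the fatty acid branch and the genes of sensing and transport. Filled points passed an adjusted p of 0.05 in limma, and the dotted lines mark the medians of 0.05, 0.05 and -0.13.

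The sterol branch held 16 measured enzymes, of which 1 rose, 1 fell and 14 did not pass. Over all genes, 5.92% were higher and 5.83% lower. The median log2 change was 0.05. Dhcr7, the reductase that makes cholesterol from its immediate precursor, had a log2 level of 8.44, 8.61 and 8.43 with progesterone, against 7.81, 7.62 and 7.59 with oil. Its progesterone arrays lay apart from and above its oil arrays, with a log2 change of 0.82 ± 0.104 (SE), or 1.77-fold (limma adjusted p = 0.00576), and it passed in all 6 fits that left out 1 array. Fdft1, squalene synthase, which commits isoprenoids to sterols, was at 8.08, 7.97 and 8.20 with progesterone, against 8.56, 8.74 and 8.62 with oil. All of its progesterone arrays lay below all of its oil arrays (log2 change -0.56 ± 0.101 SE, 1.47-fold lower, limma adjusted p = 0.0167). Another of its 4 probe sets also fell, with a log2 change of -0.56. That second call comes from limma over all 34945 probe sets with 1 symbol, of which 8.99% passed. The remaining 2 probe sets, dim at levels of 3.79 to 4.32 over the 6 arrays, had changes of -0.05 and 0.05. The call of Fdft1 ended without progesterone replicate 2 (limma adjusted p = 0.0586) or oil replicate 2 (0.0744). It also ended with the mean of its probe sets, which includes the 2 dim ones (log2 change -0.28, limma adjusted p = 0.102).

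Between these steps, several enzymes from squalene to the demethylated sterols missed the threshold. Cyp51, the lanosterol demethylase, was at 6.96, 6.92 and 7.62 with progesterone, against 5.99, 6.06 and 6.66 with oil. The groups did not overlap, and the mean difference of 0.93 on the log2 scale was the largest of the branch, with a limma adjusted p of 0.0531. It passed with the replicate block (adjusted p = 0.00337) and without oil replicate 3, the array with liver transcripts (log2 change 1.14, adjusted p = 0.0344). A second probe set of Cyp51, at 5.92, 5.84 and 6.15 with progesterone against 4.34, 4.53 and 5.26 with oil, passed among all probe sets with a log2 change of 1.26 (limma adjusted p = 0.0178). Sqle, squalene epoxidase, a rate-limiting enzyme that acts just before ring closure, was at 7.30, 7.31 and 7.89 with progesterone, against 6.83, 7.01 and 6.98 with oil (log2 change 0.56 ± 0.171 SE). Its groups did not overlap, and its adjusted p in limma was 0.0818, or 0.0402 with the replicate block. Hsd17b7, a ketosteroid reductase of the demethylation complex, was at 7.01, 6.71 and 7.09 with progesterone, against 6.18, 6.01 and 7.26 with oil. Here oil replicate 3 alone reached the progesterone arrays: the log2 change was 0.45 with it (limma adjusted p = 0.44) and 0.84 without it (0.0262).

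None of the remaining sterol enzymes passed. Tm7sf2, a sterol reductase, was at 6.93, 6.46 and 6.79 with progesterone, against 7.22, 7.19 and 7.07 with oil (log2 change -0.43). Sc5d, a desaturase, had a log2 change of -0.35. Mvk, mevalonate kinase (0.26), and Pmvk, the kinase after it (-0.24), differed in opposite directions, and each of these 4 genes had groups that did not overlap. The mevalonate enzymes Hmgcs1 (0.18), Mvd (0.18), Idi1 (0.36) and Fdps (-0.11), the cyclase Lss (-0.12), and Nsdhl (-0.09) and Ebp (-0.08), which act late, had overlapping groups. Idi1 was at 6.78, 6.91 and 7.52 with progesterone, against 6.54, 6.51 and 7.08 with oil, and its adjusted p was 0.404, or 0.0515 with the replicate block. Sc5d has other probe sets whose log2 change ran the other way (0.10 and 0.10), and 1 of the other probe sets of Lss had a log2 change of 0.44. The 4 other probe sets of Hmgcs1 had log2 changes from 0.08 to 0.36. The other probe set of Mvd was at 0.48, that of Idi1 at 0.39, that of Mvk at 0.07 and that of Fdps at 0.02. None of these other probe sets passed.

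The fatty acid branch held 12 measured enzymes, of which 3 rose, 2 fell and 7 did not pass, against 5.92% higher and 5.83% lower over all genes. Acaca, the acetyl-CoA carboxylase that supplies cytosolic malonyl-CoA, was at 9.65, 9.43 and 8.94 with progesterone, against 8.19, 8.04 and 8.03 with oil. This was the largest change of the whole set, with a log2 change of 1.25 ± 0.18 (SE), or 2.38-fold (limma adjusted p = 0.00784), and the call held in all 6 fits that left out 1 array. Its other probe set, dim at levels of 3.60 to 4.55, also rose (log2 change 0.58). Acacb, the carboxylase of the mitochondrial surface, whose malonyl-CoA restrains fatty acid oxidation, was at 6.64, 6.20 and 6.21 with progesterone, against 6.88, 7.08 and 6.72 with oil. Its groups did not overlap either, on the other side (log2 change -0.54, limma adjusted p = 0.0671, and 0.0455 with the replicate block). Its other probe set, dim at levels of 3.54 to 3.68, had a log2 change of 0.

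The elongases changed in both directions. Elovl5, which extends polyunsaturated chains, was at 12.08, 11.79 and 11.99 with progesterone, against 11.42, 11.22 and 11.52 with oil, a log2 change of 0.57 ± 0.121 (SE, limma adjusted p = 0.0274). Elovl1, which extends saturated chains to very long lengths, was at 9.80, 9.80 and 9.89 with progesterone, against 9.25, 9.31 and 9.44 with oil, a log2 change of 0.50 ± 0.0919 (SE, limma adjusted p = 0.0175). Elovl6, which extends palmitate to stearate, was at 7.85, 7.93 and 8.16 with progesterone, against 8.43, 8.67 and 8.70 with oil, a log2 change of -0.62 ± 0.123 (SE, limma adjusted p = 0.0217). For each of these 3 elongases the progesterone and oil arrays lay apart, and another probe set of the gene passed in the same direction. Their calls held in 2 of the 6 fits that left out 1 array for each gene: without oil replicate 2 the adjusted p was 0.1 for Elovl5, 0.077 for Elovl1 and 0.0905 for Elovl6. The call of Elovl5 also ended without progesterone replicate 1, progesterone replicate 3 or oil replicate 1, that of Elovl1 without progesterone replicate 2, progesterone replicate 3 or oil replicate 1, and that of Elovl6 without progesterone replicate 1, progesterone replicate 2 or oil replicate 3.

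Scd1, a desaturase that makes oleate and palmitoleate, was at 9.52, 9.97 and 9.84 with progesterone, against 10.57, 10.61 and 10.14 with oil. It fell by 0.66 on the log2 scale (1.58-fold lower, SE 0.17, limma adjusted p = 0.0485), with progesterone arrays all below oil arrays. Of the 6 fits that left out 1 array it passed only in that without oil replicate 3, and its other probe set, with a log2 change of -0.15, did not pass. The call also ended with an offset of 32 (limma adjusted p = 0.0599) and with the mean of both probe sets (log2 change -0.41, adjusted p = 0.153), and without the 3 arrays with high S100a8 the log2 change was -1.07 (0.147). Its paralogue Scd2 was at 12.69, 12.44 and 12.56 with progesterone, against 12.62, 12.52 and 12.62 with oil, and the groups overlapped. Fads2, a front-end desaturase of polyunsaturated chains, was at 8.88, 8.72 and 8.59 with progesterone, against 8.34, 8.24 and 8.40 with oil (log2 change 0.40, limma adjusted p = 0.0531), and the desaturase Fads1 had a log2 change of 0.12. The groups of Fads2 did not overlap, and its 2 other probe sets had log2 changes of 0.38 and 0.35. Fatty acid synthase, Fasn, was at 9.85, 10.09 and 9.73 with progesterone, against 9.67, 9.75 and 9.58 with oil (limma adjusted p = 0.294), and the groups overlapped. Acly and Acss2, which make cytosolic acetyl-CoA from citrate and from acetate, had log2 changes of -0.08 and -0.21 and did not pass.

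**Figure D2:**
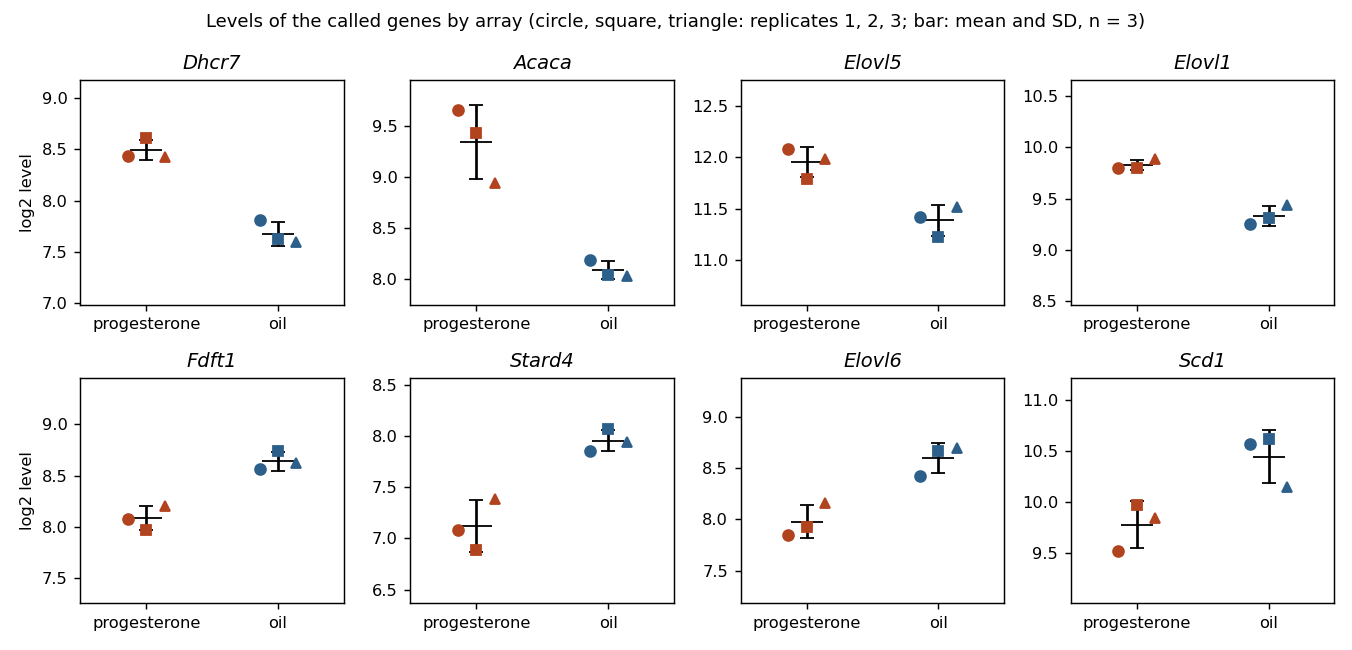
Log2 level on each array of the 8 genes that passed, with progesterone to the left of oil, and the mean and SD of 3 arrays. The progesterone arrays lie above the oil arrays for Dhcr7, Acaca, Elovl5 and Elovl1 and below them for Fdft1, Stard4, Elovl6 and Scd1.

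Among the genes of sterol sensing and transport, 0 of 7 rose and 1 fell, against 5.92% and 5.83% of all genes. Stard4, a cytosolic carrier of cholesterol between membranes, was at 7.08, 6.89 and 7.39 with progesterone, against 7.86, 8.07 and 7.94 with oil. Its log2 change of -0.84 ± 0.142 (SE, 1.79-fold lower, limma adjusted p = 0.0134) was the largest fall of the set, and the call ended only without oil replicate 2 (adjusted p = 0.0647) among the fits without 1 array. The 2 other probe sets of Stard4 had log2 changes of -0.55 and -0.19 and did not pass, and with the mean of its probe sets the log2 change was -0.52 (adjusted p = 0.0331). Abca1, which exports cholesterol from cells, was at 10.29, 10.54 and 10.22 with progesterone, against 10.85, 10.72 and 11.30 with oil (log2 change -0.61, limma adjusted p = 0.0631). Insig2, which retains Scap in the endoplasmic reticulum, was at 8.36, 8.29 and 8.25 with progesterone, against 8.53, 8.74 and 8.66 with oil (log2 change -0.34, limma adjusted p = 0.0596). Neither gene had overlapping groups, and the 2 other probe sets of Insig2 had log2 changes of -0.36 and -0.36. The SREBP genes themselves differed little: Srebf1 was at 9.03, 8.84 and 9.03 with progesterone, against 9.04, 9.24 and 9.02 with oil, and Srebf2 at 7.36, 7.49 and 7.81 with progesterone, against 7.55, 7.54 and 7.60 with oil. Insig1, itself a sensitive SREBP target, averaged 7.37 ± 0.105 with progesterone and 7.37 ± 0.14 with oil (SD, n = 3 each). Scap, the escort of the SREBPs, averaged 9.39 ± 0.11 with progesterone and 9.13 ± 0.0153 with oil (limma adjusted p = 0.119), and its groups did not overlap.

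Set against each other, the branches had nearly the same median log2 change, 0.05 in the sterol branch and 0.05 in the fatty acid branch, and a difference of medians of -0.0017. With the mean of the probe sets of each gene, the medians were 0.13 in the sterol branch and 0.09 in the fatty acid branch. Of the sterol enzymes 8 had a change above 0 and 8 below, and of the fatty acid enzymes 6 and 6. By replicate number, the median difference between the progesterone and the oil array was 0.20, -0.01 and 0.07 in the sterol branch and 0.16, 0.03 and 0.10 in the fatty acid branch. Called genes made up 2 of 16 in the sterol branch and 5 of 12 in the fatty acid branch, against 11.7% of all genes. With the replicate block they made up 4 of 16 and 6 of 12, against 16.1% of all genes. The difference between the shares of the branches was not tested.

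**Figure D3:**
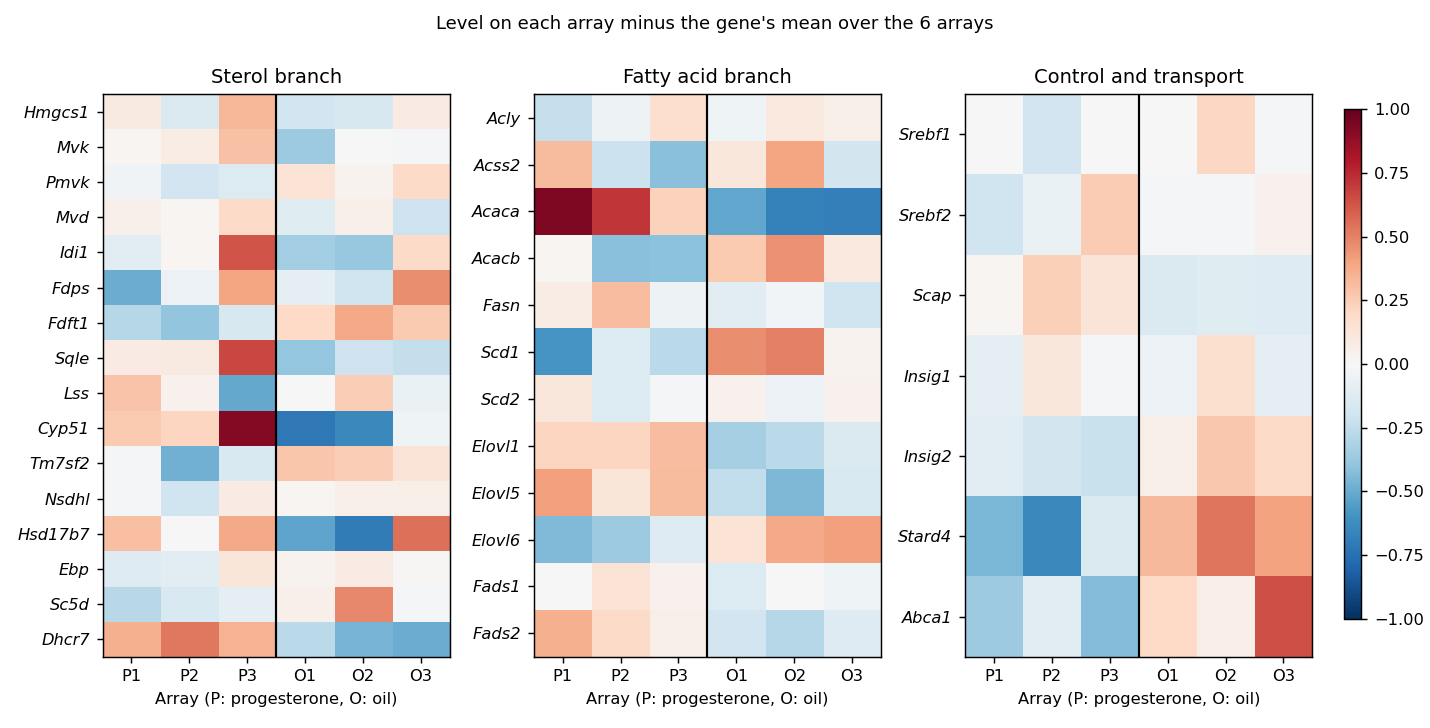
Log2 level of each gene on each array minus its mean over the 6 arrays, with the 3 progesterone arrays left of the 3 oil arrays. Within the sterol branch several genes are highest on replicate 3 of both groups, among them Idi1, Fdps and Cyp51.

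Several sterol enzymes also differed between arrays of the same group. On progesterone replicate 3, 12 of 16 sterol enzymes had their highest level among the progesterone arrays, against 3 of 12 fatty acid enzymes and 35.7% of all genes. On oil replicate 3 the counts were 6 of 16 and 4 of 12, against 32.3% of all genes. Hmgcs1, Idi1, Fdps, Cyp51 and Hsd17b7 were highest on the array numbered 3 of both groups, a pattern shown by 16.0% of all genes and picked out here after the values were seen. The 4 other probe sets of Hmgcs1 were highest on oil replicate 3 too, but on progesterone replicate 1 among the progesterone arrays. Of these, 1 was at 9.88, 9.65 and 9.84 with progesterone. Fdps, farnesyl diphosphate synthase, was 0.67 higher on progesterone replicate 3 than the mean of the other progesterone arrays, and 0.61 higher on oil replicate 3 than the mean of the other oil arrays. Sqle showed this on progesterone replicate 3 (0.58) and not on oil replicate 3 (0.06). Both arrays numbered 3 carried high S100a8, and oil replicate 3 also carried liver transcripts. Progesterone replicate 2 carried high S100a8 too. The median deviation of the sterol enzymes from their means over the 6 arrays was -0.03 on that array. It was 0.24 on progesterone replicate 3 and 0.03 on oil replicate 3. The part of neutrophil or liver transcripts in the sterol enzymes' levels was not tested. Without both arrays numbered 3, Cyp51 (adjusted p = 0.0184) and Hsd17b7 (0.0499) were higher in limma, with Dhcr7 and Acaca, and Stard4 alone was lower.

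Of 24 other measured genes of fatty acid synthesis, elongation and activation, 4 rose (Hacd2, Acsl4, Hacd1 and Hacd3), 1 fell (Me1) and 19 did not pass. Over all genes, 5.92% were higher and 5.83% lower. The median log2 change of this list was 0.12. Hacd2, a dehydratase of the elongation cycle, was at 11.70, 11.55 and 11.42 with progesterone, against 9.97, 10.06 and 10.12 with oil, or 2.84-fold higher (limma adjusted p = 0.0011), and this was the largest change among the wider lists. The dehydratases Hacd1 and Hacd3 were 1.55-fold and 1.31-fold higher (limma adjusted p = 0.0114 and 0.0495), and of the fits that left out 1 array they passed in 5 and in 0. Hsd17b12, the ketoreductase of the cycle, and Tecr, its last reductase, had log2 changes of 0.56 and -0.38 without overlap, and limma adjusted p values of 0.0811 and 0.0898 (0.0494 and 0.042 with the replicate block). Acsl4, which activates arachidonate, was at 9.75, 9.55 and 9.42 with progesterone, against 8.49, 8.62 and 8.78 with oil (1.92-fold higher, limma adjusted p = 0.00624). Me1, malic enzyme, which yields NADPH for synthesis, was 1.39-fold lower (limma adjusted p = 0.0231), and it passed in 1 of the fits that left out 1 array.

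**Figure D4:**
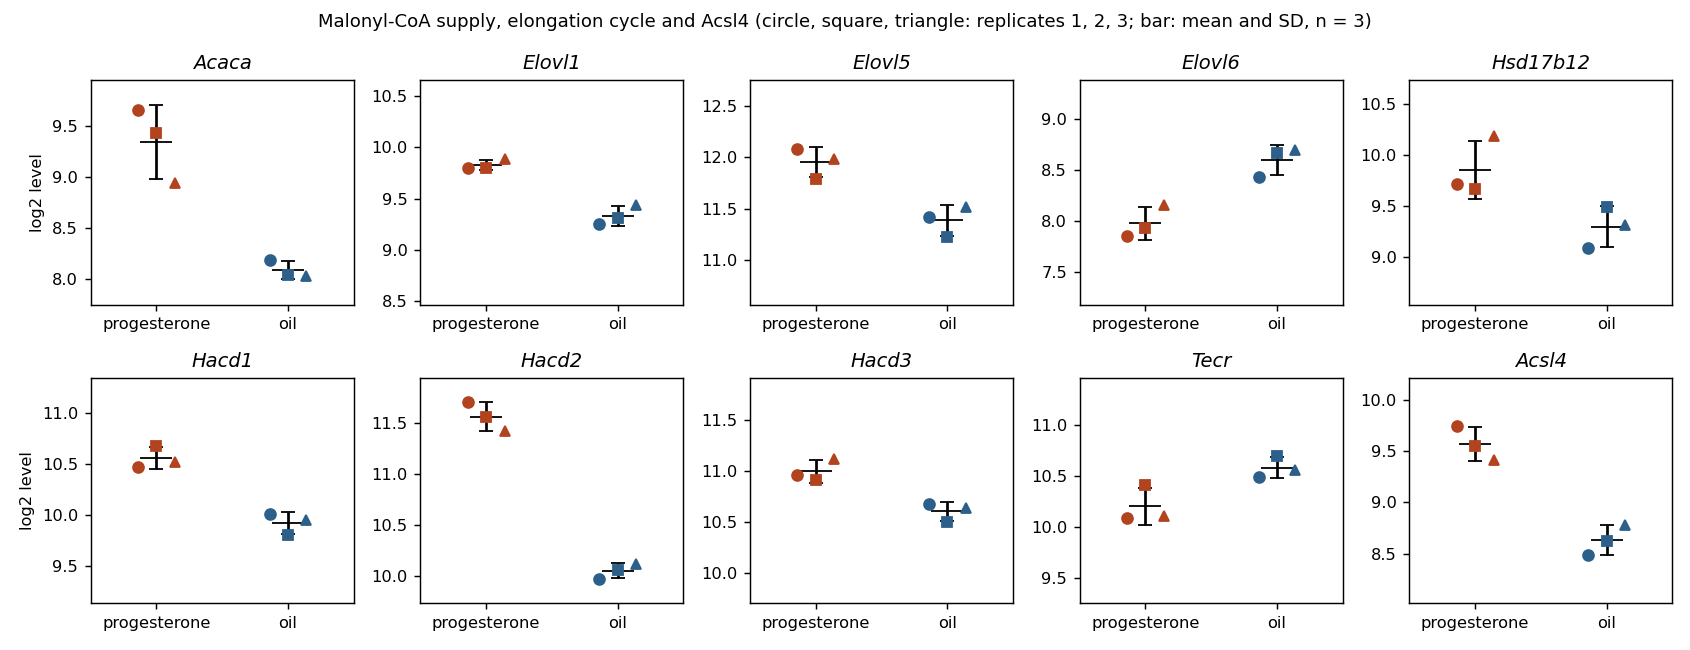
Log2 level on each array of Acaca, the elongases, the ketoreductase Hsd17b12, the dehydratases Hacd1, Hacd2 and Hacd3, the reductase Tecr, and Acsl4, with progesterone left of oil and the mean and SD of 3 arrays. Hacd2 shows the widest gap, from 11.42 and above with progesterone to 10.12 and below with oil.

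Of the other sterol lists, synthesis had 1 of 7 measured genes higher and 0 lower: Msmo1, the sterol methyl oxidase that follows Cyp51, was at 7.33, 7.23 and 7.36 with progesterone, against 6.64, 6.50 and 6.97 with oil (1.52-fold higher, limma adjusted p = 0.0315). Its groups did not overlap, as with Cyp51, and it passed in 1 of the fits that left out 1 array. Sterol control had 2 of 12 higher and 0 lower: Mlx, a partner of carbohydrate-response factors, was 1.62-fold higher (limma adjusted p = 0.00678), and Erlin1, which takes part in sterol-regulated degradation, 1.42-fold higher (0.0242), passing in 6 and in 1 of those fits. Sterol uptake, storage and transport had 1 of 12 higher and 1 lower. Beside the counts of these sterol lists, 5.92% of all genes were higher and 5.83% lower. Stard5, a sterol carrier related to Stard4, was at 8.97, 8.74 and 8.51 with progesterone, against 7.52, 7.76 and 7.82 with oil, or 2.06-fold higher (limma adjusted p = 0.00737), so it changed opposite to Stard4. Mylip, a ubiquitin ligase that removes lipoprotein receptors and is known as a target of the liver X receptors, was 1.53-fold lower (limma adjusted p = 0.00906). With the replicate block, 2 genes of this list were lower, the second being Npc1, which moves cholesterol out of lysosomes (log2 change -0.38, limma adjusted p = 0.0982, and 0.0452 with the block). Abca1 and Abcg1, sterol exporters known as targets of the same receptors, did not pass, with log2 changes of -0.61 and -0.29 and no overlap of groups.

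Genes that build glycerolipids had 2 of 15 higher and 3 lower, against 5.92% and 5.83% of all genes. Lpin1, a phosphatidate phosphatase, was at 7.80, 7.78 and 7.73 with progesterone, against 8.49, 8.67 and 8.48 with oil, or 1.71-fold lower (limma adjusted p = 0.00465). Its relative Lpin2 was 1.56-fold higher (0.038), so the phosphatases moved in opposite directions, and Agpat5, an acyltransferase, was 1.82-fold higher (0.02). Gpam, which starts triglyceride synthesis, and Plin2, a lipid droplet coat protein, were 1.41-fold and 1.49-fold lower (limma adjusted p = 0.0159 and 0.0229). With the replicate block 3 were higher, the third being Chka, a choline kinase (log2 change 0.49, limma adjusted p = 0.066, and 0.0417 with the block). Leaving out 1 array at a time, Lpin2, Agpat5 and Plin2 each passed in 2 of 6 fits and Gpam in 3. Of 17 genes of fatty acid oxidation, 0 rose and 2 fell: Ppargc1a, a coactivator of mitochondrial genes, was 2.61-fold lower (limma adjusted p = 0.0098), and Acadm, an acyl-CoA dehydrogenase, 1.44-fold lower (0.015), passing in 5 and in 3 of those fits.

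Adipocytes express many genes of fatty acid and glycerolipid synthesis, and fat transcripts had lower means on the progesterone arrays. Among the genes of these pathways, Scd1, Elovl6, Me1, Lpin1, Gpam and Plin2 fell. Acaca, Elovl1, Elovl5, Hacd1, Hacd2, Hacd3, Acsl4, Lpin2 and Agpat5 rose. Those that did not pass include Acacb (log2 change -0.54), Thrsp (-0.23), Acly (-0.08), Scd2 (-0.02), Fasn (0.22) and the acyltransferases Dgat2 (-0.60) and Agpat2 (0.04). Of 10 measured adipocyte markers, all had a log2 change below 0 and none passed in limma. An unadjusted p under 0.05 was reached by 5 of them, against 26.0% of all genes. With the replicate block 4 (Adipoq, Fabp4, Retn and Cidec) were lower, against 8.49% of all genes. The summed level of the 10 markers ran between 8.93 and 9.98 with progesterone and between 9.91 and 10.63 with oil (log2). The sum was lowest on replicate 3 within each group. On progesterone replicate 3, Lpin1 and Gpam were at their lowest among the progesterone arrays, Elovl6, Me1 and Plin2 at their highest, and Scd1 and Acacb in between. On oil replicate 3, Scd1, Acacb, Lpin1 and Gpam were at their lowest among the oil arrays, and Elovl6, Me1 and Plin2 at their highest. Every adipocyte marker exceeded 3.34, the highest value of the bacterial TrpnX controls, on every array. So did Fshr and Cyp11a1, markers of steroidogenic cells, at levels up to 4.29 and 3.90. This therefore does not show that each fat marker was expressed. Lep, Cidea, Pparg, Adig and Cidec stayed at or below 4.95 on every array. The part of adipose tissue in these values was not tested. Beside the counts of the marker lists that follow, 5.92% of all genes were higher and 5.83% lower. Of 13 hepatocyte markers 1 was higher, Ttr, and their summed level ran between 9.03 and 9.36 with progesterone and between 8.38 and 10.13 with oil. Ttr alone was at 8.63, 8.67 and 8.38 with progesterone, against 5.61, 4.81 and 7.44 with oil. Alb and Apoa2 stayed at or below 4.12 and 3.99 with progesterone. Neutrophil markers (0 of 8 called) ran between 7.62 and 13.37 with progesterone and between 7.80 and 12.81 with oil. Epithelial markers ran between 13.80 and 14.43 with progesterone and between 14.22 and 14.34 with oil. Of 12 epithelial markers 1 was higher, the junction protein Cldn3 (2.22-fold, limma adjusted p = 0.00624), and 7 had a log2 change below 0. Krt18 (log2 change -0.76), Elf3 (-0.72) and Wfdc2 (-0.56) did not pass, with progesterone arrays all below oil arrays. Ehf (0.48) did not pass either, with progesterone arrays all above oil arrays. Of 11 stromal markers 2 were higher and 1 lower, and their summed level ran between 15.30 and 15.71 with progesterone and between 15.53 and 15.70 with oil. The stromal transcription factors Hoxa11 and Hand2 were 2.18-fold and 1.55-fold higher (limma adjusted p = 0.00185 and 0.0157), and the matrix proteoglycan Lum was 2.01-fold lower (0.0257). With the replicate block, 2 epithelial markers were higher and 1 lower, and 3 stromal markers were higher and 2 lower. Over all genes, 7.6% were higher and 8.49% lower with the block. The markers added by the block were Ehf and Col1a1, which were higher, and Elf3 and Vim, which were lower. The part of stroma and epithelium in the members' changes was not tested.

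**Figure D5:**
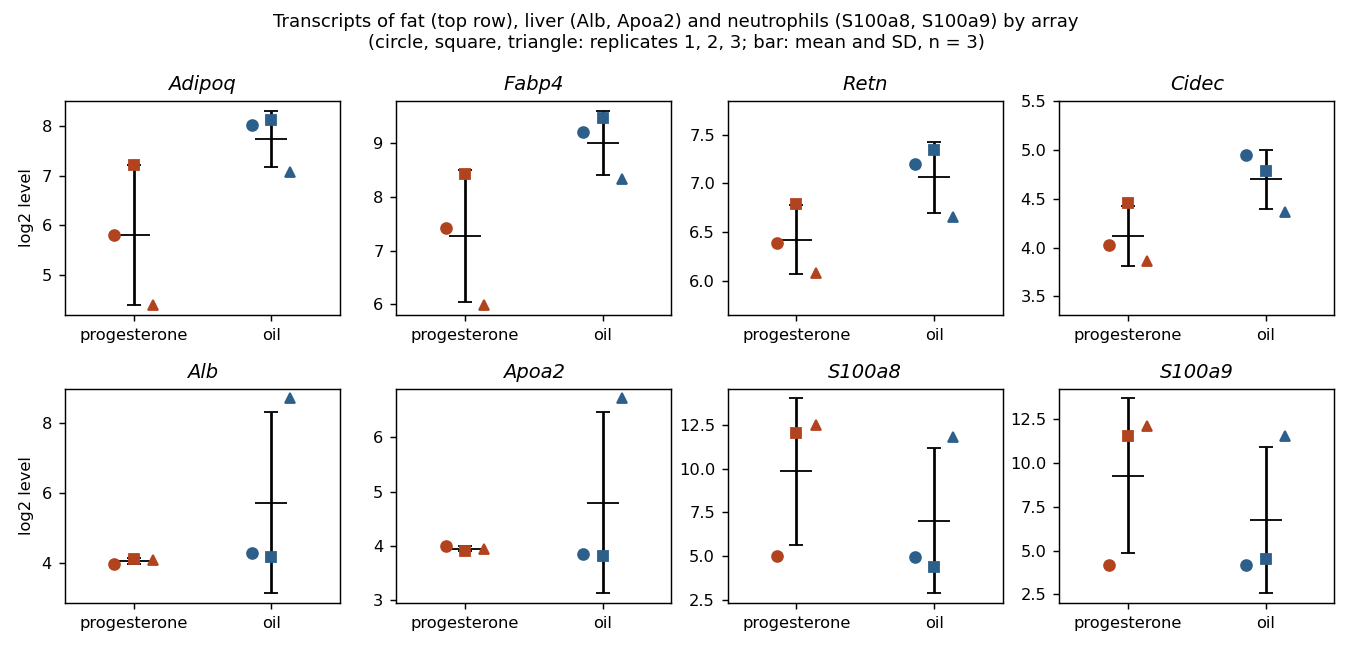
Log2 level on each array of 4 fat transcripts (top row), 2 liver transcripts and 2 neutrophil transcripts, with progesterone left of oil and the mean and SD of 3 arrays. Adipoq lies between 4.39 and 7.21 with progesterone and between 7.08 and 8.11 with oil, and Alb is high on oil replicate 3 alone.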

How the data were processed

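Whole-uterus RNA was measured on 6 one-colour Affymetrix arrays. Labelling started from 5 µg of total RNA, per the labels' protocols. Partek 6.6 and RMA are named in the submitters' processing notes. The deposited values are log2 levels of 45101 probe sets, and no source used here gives further settings. Detection calls were not used here.

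Gene names came from the platform annotation: 34945 probe sets had 1 gene symbol, 932 several and 9160 none. Each of 18193 genes was represented by its brightest probe set (mean over all 6 arrays), and all 35 members kept their symbol in the RefSeq table of GRCm38.p6. The test was limma's (version 3.58.1, R 4.3.3): lmFit, then eBayes, two-sided, unfiltered and unblocked. P-values were Benjamini-Hochberg adjusted across the 18193 genes, with 0.05 as threshold. The code was tested on simulated data. Every measured member is named, as are the genes of the wider lists past the threshold. Members, lists and branches were chosen with earlier results of these data known, and the motifs after the values were seen.

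Replicate numbers are shared by both groups, with no stated meaning. After subtracting group means, arrays with the same number had a correlation of 0.523, 0.141 and 0.636 across genes, so by a fixed rule they were taken as pairs, and for members and wider pathway lists blocked values stand where they change a call. This is a hint from the data, not from the design: oil replicate 2 correlated better with progesterone replicate 1 (0.322).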

Additional observations from a re-analysis of the deposited data

How the results depend on the processing

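The alternatives, of which those without several arrays were added after seeing the data, were quantile normalization, an offset of 32, removal of the lowest 25% of genes, averaging of probe sets per gene, trended and robust eBayes, the replicate block, an adjusted p of 0.01 and leaving out arrays. Of 490 member values under all of these except the adjusted p of 0.01, 420 kept direction and side of the threshold, 36 lost the call, 19 gained it and 15 turned sign. Most of these values belong to the 27 of 35 members that had no call to lose. Of the 6 fits without 1 array, Dhcr7 and Acaca passed in 6, Stard4 in 5 and Fdft1 in 4. Elovl1, Elovl5 and Elovl6 each passed in 2, and Scd1 in 1. Leaving out 1 array gave 379 to 848 genes higher and 278 to 907 lower, 2 to 6 members higher and 0 to 3 lower, 1 to 3 sterol enzymes higher and 0 to 1 lower, and 1 to 3 fatty acid enzymes higher and 0 to 1 lower. Without replicate 3 of both groups, 586 genes were higher and 441 lower, 1 member was lower, 3 sterol enzymes were higher and 0 lower, and 1 fatty acid enzyme was higher and 0 lower. Without the 3 arrays with S100a8 above 11, all of these counts were 0 in limma (1735 genes higher and 1644 lower at an unadjusted p under 0.05), and the median of the fatty acid branch was 0.095. At an adjusted p of 0.01, 328 genes were higher and 243 lower, 2 members were higher and 0 lower, 0 sterol enzymes were lower, and 1 fatty acid enzyme was higher and 0 lower. With the mean of probe sets, 2 members were lower, 2 sterol enzymes higher and 0 lower, and 1 fatty acid enzyme lower. An offset of 32 gave 1 fatty acid enzyme lower. Sterol enzymes higher numbered 2 without the lowest 25% of genes, 2 with trended and robust eBayes and 3 with the replicate block. Members that never passed turned sign: Fdps ran from -0.33 to 0.11 without 1 array, Lss from -0.30 to 0.10, Acly from -0.18 to 0.02, Scd2 from -0.0867 to 0.0383 and Srebf2 from -0.138 to 0.0867. Lss was at 0.0933 and Scd2 at 0.0644 with the mean of probe sets, Srebf2 at 0.00722 with quantile normalization, and Lss at 0.04 without replicate 3 of both groups. Without the arrays high in S100a8, Lss was at 0.16, Acss2 at 0.06 and Scd2 at 0.12. The cause was not tested, and 3 arrays a group limit the precision.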
